A study of Mus musculus with 4 samples.

Results

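Wnt7 signalling to the vessel wall was followed through 9 genes of the 31053 that were counted in each library. The genes were chosen for their roles in the pathway, with earlier results of these data known: the ligands Wnt7a and Wnt7b, the receptor genes Fzd4, Adgra2, Reck and Tspan12, and the beta-catenin partner and target genes Lef1, Axin2 and Apcdd1. UMIs of all 9 were counted in all 4 libraries. Single-nucleus RNA-seq had been run on brain nuclei of male C57BL/6J mice aged 8 weeks, each injected with a serotype 9 adeno-associated virus (AAV) in the cisterna magna, where cerebrospinal fluid collects at the back of the brain. The AAV-VEGF-C virus carried full-length mouse VEGF-C, the ligand of the receptor VEGFR-3, and AAV-CTRL carried a soluble piece of VEGFR-3 that does not bind VEGF-C, joined to an immunoglobulin tail, so every group received a virus that makes a secreted protein. Each AAV group was a pool of 5 mice, which gave both the tissue labelled cortex and the tissue labelled striatum, and each of the 4 groups was 1 library. No difference between groups therefore has a replicate check, and no p-value is given.

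Wnt7a and Wnt7b are secreted ligands that glia and neurons make for the blood vessels of the central nervous system. On endothelial cells, the membrane protein RECK binds Wnt7 and, with the adhesion receptor GPR124 (the product of Adgra2), presents it to Frizzled receptors such as FZD4, for which the tetraspanin TSPAN12 is a co-factor in signalling by the unrelated ligand Norrin. The receptors stabilise beta-catenin, which joins TCF and LEF1 proteins on DNA, switches on genes such as Axin2 and Apcdd1 and sustains the blood-brain barrier.

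The libraries held 17168 to 23724 nuclei and 63165470 to 78332657 UMIs, unique molecular identifiers that stand for single captured transcripts, and 72694 of 78728 nuclei were kept after doublets were removed. Libraries shared 76 to 118 barcodes per pair, and 275 to 344 barcodes of a library, or 1.45% to 1.64%, were found in any of the others. The libraries labelled striatum went against their label. The summed level of 10 marker genes of spiny projection neurons (SPNs), the main neurons of the striatum, was 2086 and 2123 CPM in the cortex libraries of AAV-CTRL and AAV-VEGF-C but 1042 and 1029 CPM in the libraries labelled striatum, where CPM is UMIs of a gene per 1000000 UMIs of all genes. SPN-like nuclei were 8.77% and 9.10% of the kept nuclei in the cortex libraries and 2.50% and 2.48% in those labelled striatum. Thalamic neuron-like nuclei numbered 2 and 24 in the cortex libraries and 1096 and 1045 in the others. These are accordingly called striatum-labelled libraries below. Cortex stands below for the libraries labelled cortex, which held SPN-like nuclei as well. Each result is given within a region label, and since every region comparison rests on both striatum-labelled libraries, none can be given without them.

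Endothelial-like nuclei numbered 635 and 669 in cortex of AAV-CTRL and AAV-VEGF-C and 1033 and 745 in the striatum-labelled libraries of the same viruses. Values stand in that order of libraries wherever 4 are given. All 15 markers fixed for endothelial cells were counted in this class in every library, with a sum of 14240, 13758, 13525 and 13623 CPM. Markers of pericytes summed to 950 to 1285 CPM and those of fibroblasts to 64.1 to 335 CPM in the same nuclei. Those of neurons summed to 4631 to 5211 CPM, of astrocytes to 1112 to 2137 CPM and of oligodendrocytes to 980.3 to 2907 CPM, beside 15831 to 16598, 1234 to 1730 and 1326 to 3527 CPM over all kept nuclei. The part of such RNA in the endothelial-like values was not tested. Astrocyte-like nuclei numbered 1904, 2352, 2931 and 2014, and nuclei like oligodendrocyte precursor cells (OPCs) 425, 537, 541 and 481. A mixed vascular class of 265, 335, 421 and 297 nuclei, from 6 clusters, had the markers of a vessel class together with those of another class and was therefore given no cell type. Its endothelial markers stood at 92.7% to 113% of the endothelial-like level, and its median depth was 3137 to 3500 UMIs per nucleus against 1258 to 1549 in endothelial-like nuclei. It was left out where named classes are ranked. Levels below are CPM of the class with an exact Poisson 95% interval, and ratios have exact conditional binomial 95% intervals. All intervals cover counting error only. Levels are compared between classes for 1 gene at a time. Levels of different genes are used only to order the lists of other pathway genes.

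The ligands were counted in glia. Wnt7a stood at 46.8, 41.9, 53.1 and 46.4 CPM in astrocyte-like nuclei, from 164, 185, 290 and 198 UMIs. In OPC-like nuclei it was 34.3, 29.0, 33.4 and 23.2 CPM. Astrocyte-like nuclei were the class with the highest Wnt7a in 3 of the 4 libraries. The exception was striatum-labelled AAV-CTRL, where neuroblast-like nuclei stood at 64.2 CPM on only 8 UMIs. Oligodendrocyte-like nuclei, of the same glial lineage as OPCs, held 1.80 to 4.19 CPM, which lay below the range of OPC-like nuclei in every library. Wnt7a was found in 7.98%, 7.31%, 9.08% and 8.94% of astrocyte-like nuclei and in 0.299% to 0.725% of oligodendrocyte-like nuclei, at median depths of 1786 to 2074 and 1606 to 2011 UMIs per nucleus.

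Wnt7b was also counted in glia. It was 41.4, 45.9, 39.0 and 44.1 CPM in astrocyte-like nuclei, the highest class in 4 of 4 libraries, and 31.1, 40.1, 27.1 and 34.8 CPM in OPC-like nuclei. The ranges of these classes over the libraries overlapped for Wnt7b and lay apart for Wnt7a. Neurons separated the ligands. Cortical excitatory neuron-like nuclei held Wnt7b at 12.1 and 12.3 CPM and Wnt7a at 1.95 and 1.69 CPM in the cortex libraries. The fold between astrocyte-like and excitatory neuron-like nuclei was thus smaller for Wnt7b.

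Excitatory neurons carried a large part of the Wnt7b transcripts of the cortex libraries, near their part of all transcripts. Cortical excitatory neuron-like nuclei held 33.4% and 30.9% of all Wnt7b UMIs in the cortex libraries. Their UMIs of all genes were 17981836 of 57506720 and 21867575 of 69729299. Their Wnt7b level, 12.1 and 12.3 CPM, was near the 11.3 and 12.5 CPM of all kept nuclei. In each striatum-labelled library they held 1.83% of Wnt7b UMIs, on only 9 and 8 UMIs. There such nuclei were 0.352% and 0.109% of the kept nuclei. Astrocyte-like nuclei held 22.2% and 23.2% of Wnt7b UMIs in cortex and 43.4% and 43.1% in the striatum-labelled libraries. For Wnt7a, in contrast, astrocyte-like nuclei held 43.4%, 43.0%, 46.5% and 46.2% of the UMIs. Over all kept nuclei Wnt7a was 6.57, 6.17, 9.44 and 6.92 CPM and Wnt7b 11.3, 12.5, 7.44 and 7.03 CPM. The part of the class shares in these levels was not tested. In these pooled sums, fewer cells of a class and less RNA per cell cannot be told apart.

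Within neurons, Wnt7b was uneven. Thalamic neuron-like nuclei held 0.39 and 0.87 CPM in the striatum-labelled libraries. A neuron cluster led by Nrgn and Tbr1 held 20.5 and 19.4 CPM in the cortex libraries. Wnt7a reached 9.88 to 21.2 CPM in interneuron-like nuclei and 40.6 and 27.0 CPM in cerebellar granule neuron-like nuclei, which passed the minimum of 50 nuclei only in the striatum-labelled libraries.

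Single astrocyte-like nuclei with a UMI of both ligands numbered 10, 21, 19 and 24, beside 10.9, 13.7, 18.2 and 15.4 if the ligands were placed without regard to each other. Nuclei of greater depth have a higher chance of holding both, and the part of depth in these counts was not tested.

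The ligands had few UMIs in endothelial-like nuclei. Wnt7a was 5.21, 4.07, 7.53 and 7.04 CPM from 5, 4, 11 and 9 UMIs, a fold of 0.789, 0.656, 0.795 and 1.02 over all other kept nuclei. Wnt7b was 4.16, 18.3, 9.59 and 4.69 CPM from 4, 18, 14 and 6 UMIs, a fold of 0.363 (0.099 to 0.935), 1.47, 1.30 and 0.663. The interval lay clear of 1 only for Wnt7b in cortex AAV-CTRL, and the range of Wnt7a in endothelial-like nuclei lay below its range in astrocyte-like nuclei.

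**Figure D1:**
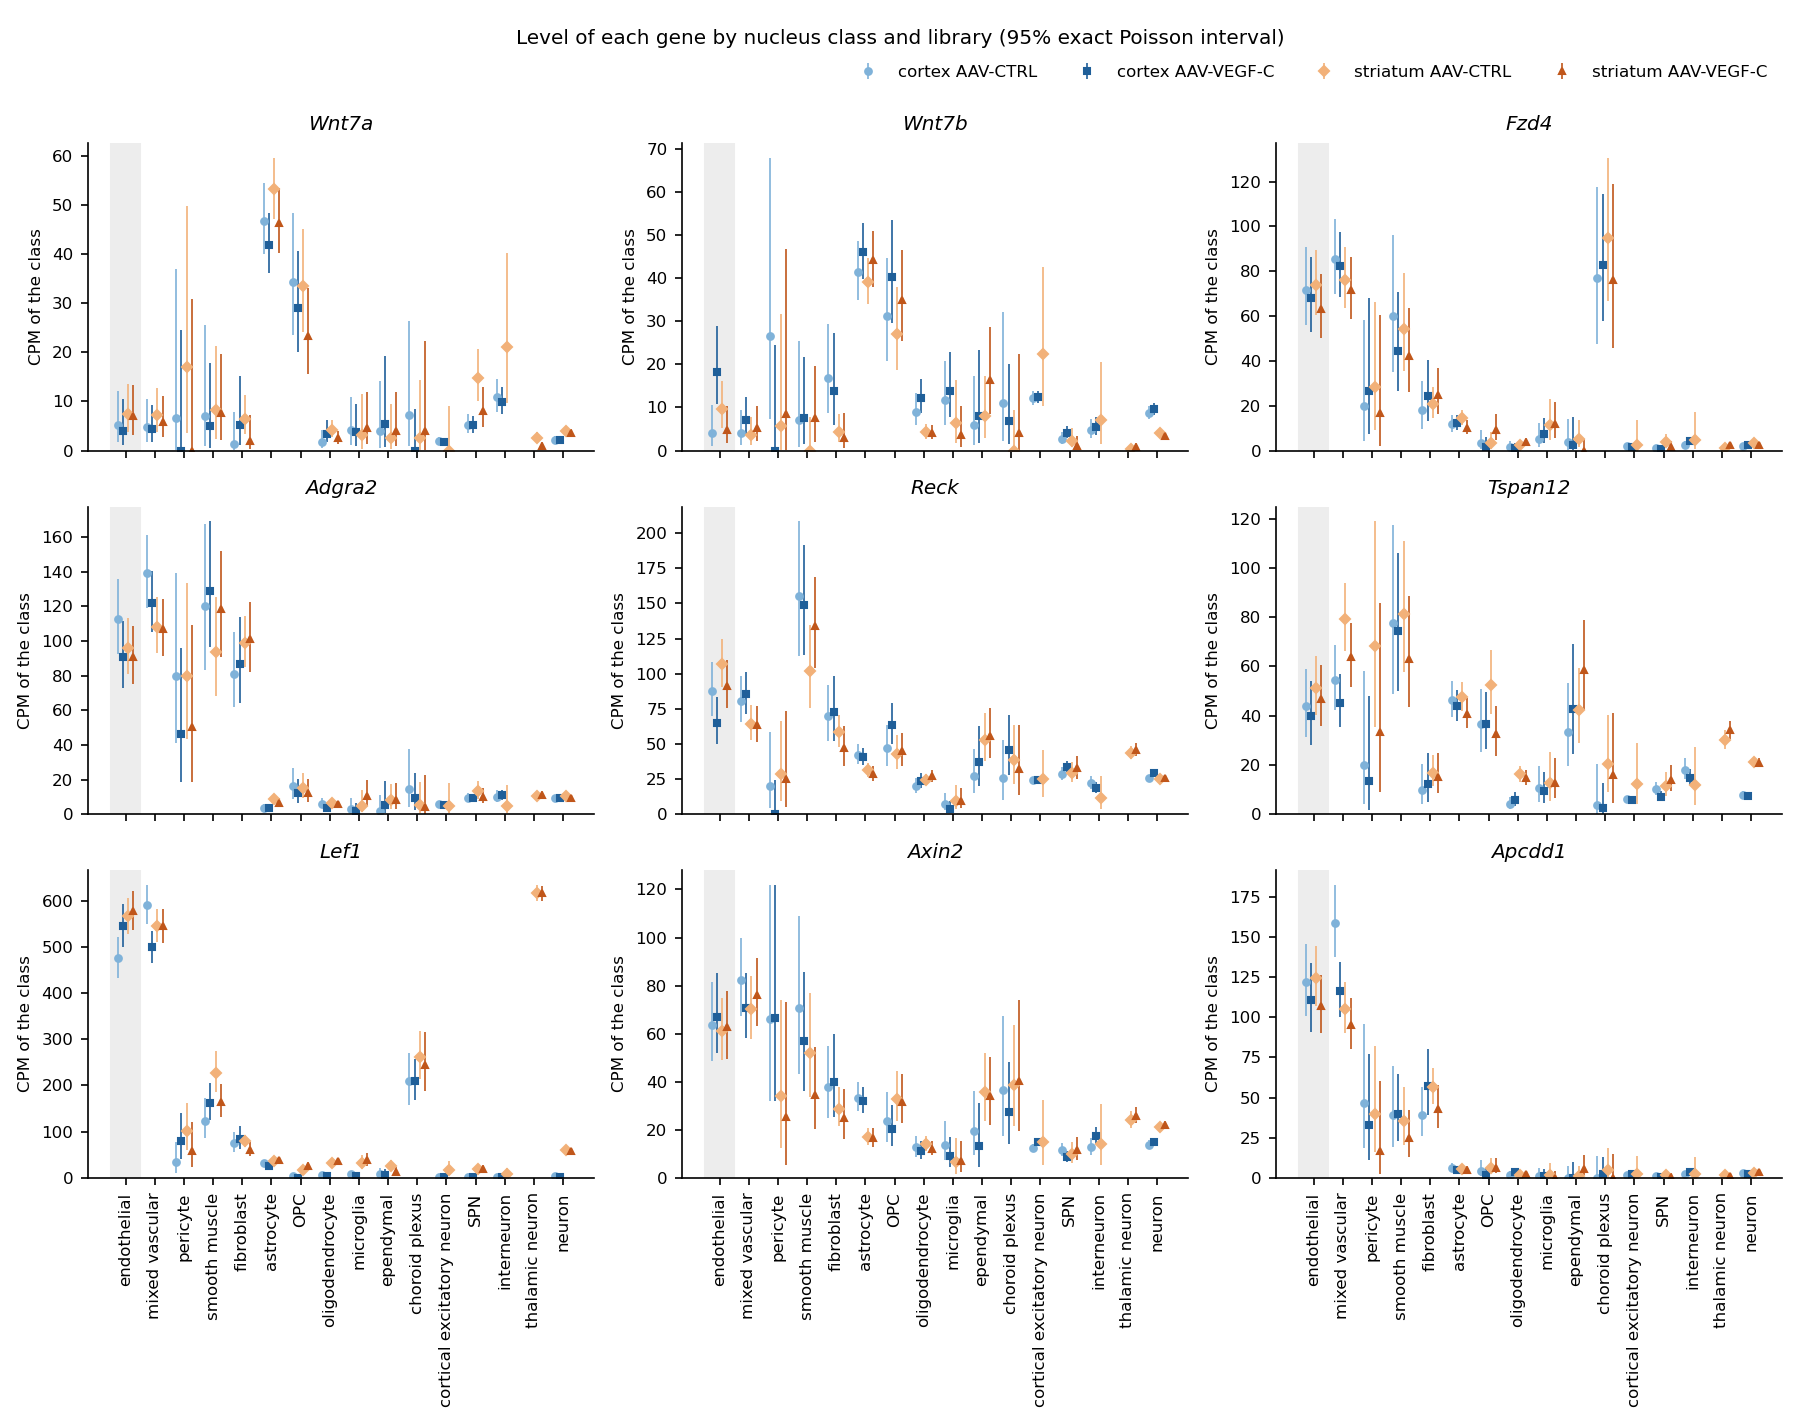
Level of each of the 9 genes, in CPM of the class on a linear axis from 0, by class of nuclei; each point is 1 of 4 libraries with its exact Poisson 95% interval. Wnt7a and Wnt7b are high in the astrocyte and OPC classes, Apcdd1 is highest in the endothelial and mixed vascular classes, and Lef1 is high in these and in thalamic neuron-like nuclei.

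Of the receptor genes, Fzd4, which encodes the Frizzled receptor for Norrin, was 71.8, 68.1, 74.0 and 63.4 CPM in endothelial-like nuclei from 69, 67, 108 and 81 UMIs. Its fold over all other kept nuclei was 13.0, 12.2, 9.63 and 9.89, so endothelial-like nuclei stood far above the bulk of the libraries. At least 1.5-fold higher levels in endothelial-like nuclei were also seen for 32.4%, 31.3%, 28.8% and 28.2% of all genes with at least 50 UMIs. Choroid plexus-like nuclei, the epithelium that makes cerebrospinal fluid, were the named class with the highest Fzd4 in each library, at 76.8, 82.7, 94.8 and 76.3 CPM. Mixed vascular nuclei held 85.5, 82.1, 76.2 and 71.6 CPM, more than choroid plexus-like nuclei in cortex AAV-CTRL. The range of choroid plexus-like nuclei over libraries lay just above that of endothelial-like nuclei. The intervals of choroid plexus-like nuclei, from 417 nuclei in all, overlapped it. Summed endothelial markers in choroid plexus-like nuclei were 4.8% to 8.5% of the endothelial-like level.

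Adgra2, the gene of GPR124, was 112, 90.5, 95.9 and 90.7 CPM in endothelial-like nuclei and 9.07-, 8.00-, 6.05- and 6.50-fold above all other kept nuclei. It was not limited to endothelial-like nuclei. Smooth muscle-like nuclei had a median over libraries of 119 CPM, fibroblast-like nuclei of 92.7 CPM and pericyte-like nuclei of 64.8 CPM, and the ranges of smooth muscle-, endothelial- and fibroblast-like nuclei overlapped. Mixed vascular nuclei held 139, 122, 108 and 107 CPM, above the endothelial-like value of the same library each time. Astrocyte-like nuclei held 3.42, 3.62, 8.61 and 6.33 CPM.

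Reck, the gene of the Wnt7-binding partner of GPR124, was 87.5, 65.1, 107 and 91.5 CPM in endothelial-like nuclei, 3.04-, 2.14-, 3.52- and 2.83-fold above all other kept nuclei. It was highest in smooth muscle-like nuclei in 3 of 4 libraries, with a range of 102 to 155 CPM that touched the endothelial-like range. Unlike Adgra2 it was also broad in OPC- and astrocyte-like nuclei and in neurons. OPC-like nuclei held 47.2, 63.2, 43.0 and 44.9 CPM and astrocyte-like nuclei 42.2, 40.7, 31.1 and 28.6 CPM. In the striatum-labelled libraries the astrocyte-like level lay below that of all kept nuclei. Microglia-like nuclei held at most 9.61 CPM. Cortical excitatory neuron-like nuclei held 24.4 and 24.3 CPM, and 25.6% and 24.7% of Reck UMIs, in the cortex libraries. Thalamic neuron-like nuclei held 43.8 and 45.7 CPM in the striatum-labelled libraries.

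Tspan12 was the receptor gene with the smallest endothelial excess in the striatum-labelled libraries. It was 43.7, 39.7, 51.4 and 46.9 CPM in endothelial-like nuclei, and 46.2, 43.9, 47.6 and 40.8 CPM in astrocyte-like nuclei, and these ranges overlapped. The fold of endothelial-like over all other kept nuclei was 3.43, 3.32, 1.89 and 1.82. Smooth muscle-like nuclei had a median of 76.0 CPM. That class is small, with 57, 71, 105 and 74 nuclei, and its endothelial markers reached 54.7% to 65.7% of the endothelial-like level, so the part of endothelial RNA in its values of Adgra2, Reck and Tspan12 was not tested.

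**Figure D2:**
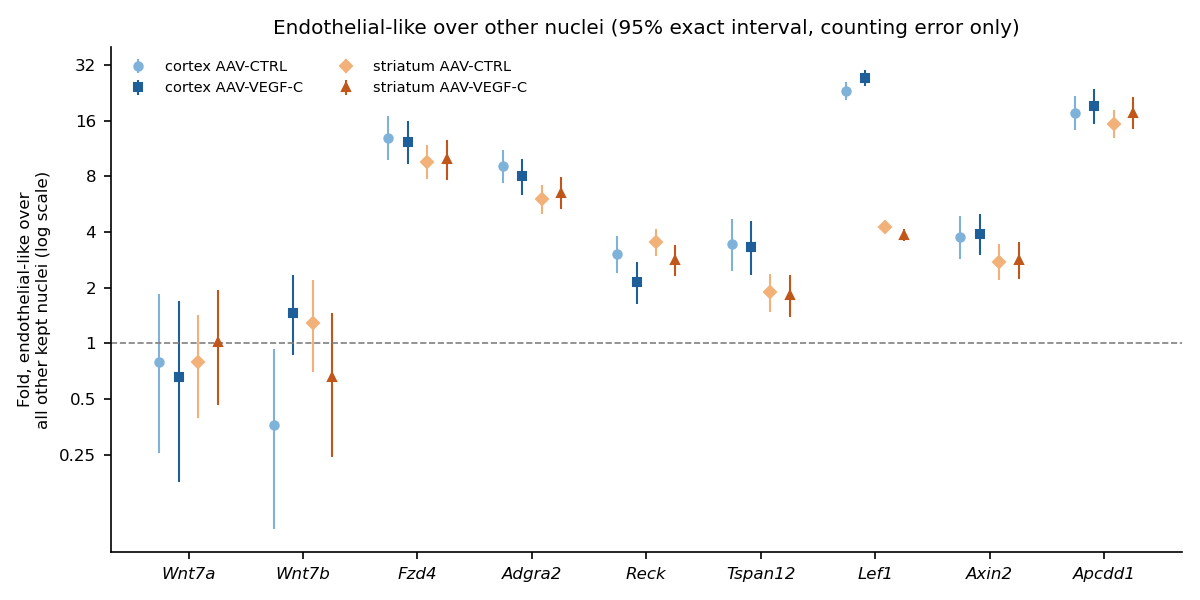
Fold of the level in endothelial-like nuclei over that in all other kept nuclei, on a log axis, for each gene and each of 4 libraries with exact 95% intervals. Wnt7a lies between 0.656 and 1.02 and Wnt7b between 0.363 and 1.47, Apcdd1 lies between 15.4 and 19.3, and Lef1 falls from 23.3 and 27.2 in cortex to 4.28 and 3.87 in the striatum-labelled libraries.

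Lef1 encodes the transcription factor that carries beta-catenin to DNA. In endothelial-like nuclei it was 476 (433 to 522), 545 (500 to 593), 566 (528 to 606) and 577 (536 to 621) CPM, and 41.4%, 45.1%, 42.7% and 47.5% of these nuclei had a UMI of it. In OPC-like nuclei of the cortex libraries, of median depth 2166 and 2104 UMIs beside 1386 and 1357 in endothelial-like nuclei, 0.706% and 0% did, the latter of 537 nuclei. The endothelial-like level varied by less than 1.5-fold between libraries, while that of the remaining nuclei did not stay the same. Lef1 over all other kept nuclei was 20.5 and 20.0 CPM in cortex and 132 and 149 CPM in the striatum-labelled libraries. Thalamic neuron-like nuclei, a class whose markers were fixed and did not include Lef1, held 616 CPM in each striatum-labelled library, from 4719 and 5629 UMIs.

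The share of Lef1 UMIs that endothelial-like nuclei carried was accordingly 28.3% and 28.0% in cortex and 8.83% and 7.54% in the striatum-labelled libraries, where thalamic neuron-like nuclei carried 50.4% and 57.5%. Mixed vascular nuclei carried 45.8% and 41.0% in cortex, more than endothelial-like nuclei did, and 9.63% and 8.54% in the striatum-labelled libraries, at 590, 499, 545 and 544 CPM. Lef1 was also higher in most other classes there. Of 19 classes with at least 50 nuclei in both AAV-CTRL libraries, 18 had more Lef1 in the striatum-labelled library, with a median difference of 17.2 CPM, and so had 14 of 16 classes in the AAV-VEGF-C libraries, with a median difference of 28.5 CPM. Oligodendrocyte-like nuclei, for example, went from 5.04 and 3.44 CPM in cortex to 31.5 and 36.9 CPM. Whether transcripts free in the suspension had a part in the Lef1 values of classes other than thalamic neuron-like nuclei was not tested.

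Among other classes Lef1 was 209, 209, 261 and 245 CPM in choroid plexus-like nuclei and had medians of 163 CPM in smooth muscle-like, 77.5 CPM in fibroblast-like and 69.1 CPM in pericyte-like nuclei. The ranges of the first pair of these overlapped, as did those of the second. Neuron clusters of the striatum-labelled libraries differed as well, with 141 and 177 CPM in a cluster with the habenular receptor gene Gpr151 among its leading genes.

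Axin2 encodes a scaffold that feeds back on the pathway by marking beta-catenin for destruction. It was 63.5, 67.1, 61.0 and 62.6 CPM in endothelial-like nuclei, 3.78-, 3.89-, 2.77- and 2.82-fold above other kept nuclei, and these 4 levels lay within each other's intervals. Endothelial-like nuclei were the highest named class in 3 of 4 libraries, and mixed vascular nuclei stood above them in each, at 82.3, 70.7, 70.1 and 76.2 CPM. Smooth muscle-like nuclei with a median of 54.5 CPM and pericyte-like nuclei with 50.2 CPM overlapped their range.

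Apcdd1 encodes a membrane inhibitor of Wnt ligands that is itself a target of the pathway. In endothelial-like nuclei it was 122 (101 to 146), 111 (91.0 to 134), 125 (107 to 144) and 107 CPM. These were its highest named class in 4 of 4 libraries, 17.7-, 19.3-, 15.4- and 17.7-fold above all other kept nuclei, and carried 23.1%, 21.6%, 25.9% and 27.1% of its UMIs. Mixed vascular nuclei held 159 (138 to 183), 117, 105 and 95.1 CPM, above endothelial-like nuclei in both cortex libraries and below them in the others. They carried 39.3%, 36.3%, 24.7% and 28.9% of the UMIs of Apcdd1, more than endothelial-like nuclei in 3 of 4 libraries. The next named class, fibroblast-like nuclei, had a median of 49.8 CPM and a range that did not reach the endothelial-like one. Astrocyte-like nuclei held 4.92 to 5.99 CPM.

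Counting each member in each library, endothelial-like nuclei were the highest named class in 10 of 36 pairs: Apcdd1 in 4, Axin2 in 3, Lef1 in both cortex libraries and Reck in 1. Of all genes with at least 50 UMIs, 5.28%, 5.08%, 3.79% and 5.54% were highest there. When the classes with endothelial markers above 10% of the endothelial-like level were left out, an alternative chosen after seeing the data, the count was 15 of 36.

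Promoter sequence was taken from RefSeq on GRCm38.p6 as the 250 bases before each annotated start, which gave 9 windows for 6 of the 9 genes; Wnt7b, Adgra2 and Apcdd1 had no entry. TCF and LEF1 proteins bind short motifs that start with CTTTG, so windows were searched on both strands. The letters CTTTGAA and CTTTGAT, tried first, were in 0 of the 9 windows and in 7.48% of 32851 windows of all genes. With CTTTGTA and CTTTGTT added, 2 of 9 windows held a match, beside 14.8% of all windows. The windows shown precede an annotated start of the receptor gene, the DNA-binding partner and the feedback gene whose levels are described above. Their capitals mark the match as it reads on the gene's strand. For Lef1 the window shown precedes a start inside the gene, and the other Lef1 windows held 0 matches.
Reck, chr4:43875280-43875529, plus strand: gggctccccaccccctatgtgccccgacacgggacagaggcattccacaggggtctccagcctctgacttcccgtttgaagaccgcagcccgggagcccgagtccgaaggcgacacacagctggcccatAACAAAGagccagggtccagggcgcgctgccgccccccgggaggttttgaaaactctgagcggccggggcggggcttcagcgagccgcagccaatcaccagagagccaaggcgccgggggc
Lef1, start inside the gene, chr3:131156044-131156293, plus strand: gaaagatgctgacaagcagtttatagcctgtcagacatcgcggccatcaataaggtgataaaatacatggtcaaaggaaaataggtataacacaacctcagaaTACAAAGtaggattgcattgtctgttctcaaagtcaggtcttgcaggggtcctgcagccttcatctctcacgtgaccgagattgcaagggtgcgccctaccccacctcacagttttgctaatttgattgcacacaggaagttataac
Axin2, chr11:108920099-108920348, plus strand: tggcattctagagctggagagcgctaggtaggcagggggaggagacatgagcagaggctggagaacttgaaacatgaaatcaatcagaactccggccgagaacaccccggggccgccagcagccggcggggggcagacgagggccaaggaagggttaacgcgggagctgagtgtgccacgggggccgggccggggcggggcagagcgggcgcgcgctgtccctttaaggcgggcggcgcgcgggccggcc
The Reck match lies 121 bases and the Lef1 match 147 bases before the start, and the Axin2 window has none. A match is a description of the letters and not of binding.

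The clusters of endothelial-like nuclei largely followed the region label. Differences between the cortex cluster and those of the striatum-labelled libraries therefore cannot be told apart from differences between libraries. Nuclei of the cortex libraries fell mostly in 1 cluster, with 595 and 630 nuclei. Those of the striatum-labelled libraries fell mostly in a marker-high cluster, with 555 and 417 nuclei, and a marker-low cluster, with 405 and 296 nuclei. Endothelial markers summed to 17568 and 17351 CPM in the marker-high cluster and to 5506 and 5475 CPM in the marker-low cluster, which also had 796 and 805 CPM of fibroblast markers. The last cluster was small, with 25, 20, 51 and 27 nuclei, and is called arterial-like from 8 of 10 fixed arterial markers.

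Lef1 was 498 and 548 CPM in the cortex cluster, 748 and 724 CPM in the marker-high cluster and 264 and 281 CPM in the marker-low cluster. Apcdd1 followed the same order, with 125 and 114, then 166 and 142, then 63.0 and 45.5 CPM. Axin2 was 66.1 and 68.9, then 74.1 and 78.3, then 44.4 and 32.1 CPM. Of these clusters, the marker-low one had the lowest level of all 3 genes. Its median depth was 964 and 1153 UMIs per nucleus, against 1506 and 1920 in the marker-high and 1371 and 1352 in the cortex cluster. The parts of depth, of its lower endothelial markers and of its fibroblast markers in these values were not tested.

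Arterial-like nuclei had more Reck and less Apcdd1 than the cortex or marker-high cluster of the same library. Reck was 373 (217 to 597), 156 (57.4 to 340), 538 (405 to 700) and 463 (300 to 684) CPM there, from 17, 6, 55 and 25 UMIs, against 72.9 and 60.2 CPM in the cortex cluster and 85.2 and 91.4 CPM in the marker-high cluster. Apcdd1 had 0, 2, 1 and 0 UMIs in arterial-like nuclei. Lef1 was 176, 469, 186 and 278 CPM there, below the level of the cortex or marker-high cluster of the same library in each case. Since clusters were made from the expression of these nuclei, with the 9 genes left out, these values are a description.

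**Figure D3:**
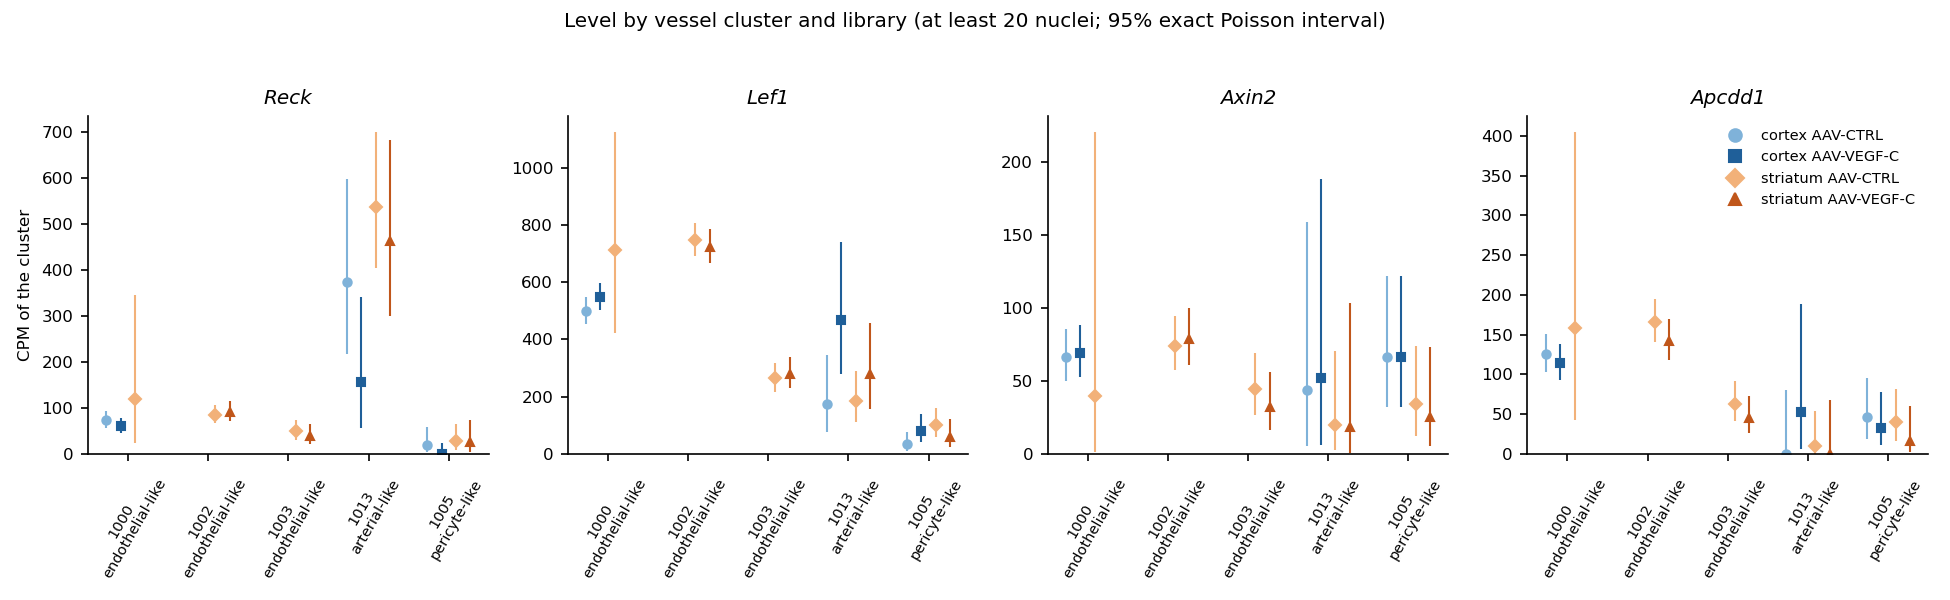
Level of 4 of the genes, in CPM of the cluster on a linear axis from 0, in clusters of vessel nuclei; each point is a library with at least 20 nuclei in the cluster, with its exact Poisson 95% interval. Reck is highest in the arterial-like cluster, at 156 to 538 CPM, where Apcdd1 has at most 2 UMIs in a library.

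The question of the AAV comparison was whether the genes of the Wnt7 pathway differed between AAV-VEGF-C and AAV-CTRL tissue. In endothelial-like nuclei of cortex, 7 of the 9 genes had at least 50 UMIs in both libraries together, and 0 of the 7 differed by 1.5-fold or more, beside 5.66% of 7577 genes so measured. Lef1 was 476 CPM with AAV-CTRL and 545 CPM with AAV-VEGF-C, a log2 ratio of 0.20 (0.01 to 0.38). It was the only one of the 7 whose interval lay clear of 0, as did 8.90% of all genes measured. Mixed vascular nuclei of cortex went the other way, from 590 CPM on 739 UMIs to 499 CPM on 784 UMIs, a log2 ratio of -0.24 (-0.39 to -0.09). Whether the ratios of these classes differed was not tested. Reck in endothelial-like nuclei went from 87.5 to 65.1 CPM, a log2 ratio of -0.43 (-0.92 to 0.06), and Adgra2 from 112 to 90.5 CPM, a log2 ratio of -0.31 (-0.73 to 0.11). The targets Axin2, with a log2 ratio of 0.08 (-0.44 to 0.61), and Apcdd1, with -0.14 (-0.53 to 0.25), could still differ by up to those bounds. Wnt7b, under the minimum of UMIs in this class, had 4 UMIs with AAV-CTRL and 18 with AAV-VEGF-C. The summed astrocyte markers of these nuclei were 1480 and 2137 CPM, and their part in the Wnt7b counts was not tested.

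In mixed vascular nuclei 0 of 7 members measured passed 1.5-fold in either region, beside 6.90% and 10.1% of all genes. Intervals were clear of 0 for 2 of 7 in cortex, Lef1 and Apcdd1, beside 12.3% of all genes, and for 0 of 7 in the striatum-labelled libraries, beside 18.8%. Apcdd1 in cortex went from 159 to 117 CPM, a log2 ratio of -0.45 (-0.75 to -0.15). In the striatum-labelled libraries Lef1 was 545 and 544 CPM and Apcdd1 105 and 95.1 CPM, with a log2 ratio of -0.15 (-0.47 to 0.18).

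In endothelial-like nuclei of the striatum-labelled libraries, 0 of 7 differed by 1.5-fold or more, beside 6.10% of 9228 genes. Lef1 was 566 and 577 CPM, a log2 ratio of 0.03 (-0.12 to 0.17), and whether this differed from the ratio in cortex was not tested. Axin2 had a log2 ratio of 0.04 (-0.42 to 0.49) and Apcdd1 of -0.22 (-0.55 to 0.11). Fzd4, Adgra2, Reck and Tspan12 had log2 ratios of -0.22, -0.08, -0.22 and -0.13, each with an interval that held 0. The ratio of Reck depended on the processing: it was 0.38 with each library clustered on its own and -0.67, past 1.5-fold, with nuclei thinned to 1000 UMIs. Intervals clear of 0 were found for 0 of the 7, beside 12.1% of all genes measured. The median over the 9 genes was -0.14 in cortex and -0.13 in the striatum-labelled libraries, beside -0.01 and -0.04 over all genes measured.

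The ligands in glia differed within counting error. In astrocyte-like nuclei Wnt7a had a log2 ratio of -0.16 (-0.47 to 0.15) in cortex and -0.20 (-0.46 to 0.07) in the striatum-labelled libraries. Wnt7b had 0.15 (-0.16 to 0.47) and 0.18 (-0.12 to 0.47). The ligands thus had opposite signs in both regions, with intervals that held 0 each time, and intervals clear of 0 were found for 11.3% and 16.5% of all genes measured. Of the 9 genes, 0 of 7 measured in cortex and 0 of 9 in the striatum-labelled libraries passed 1.5-fold in this class, beside 2.90% and 3.80% of all genes measured.

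In OPC-like nuclei, 0 of 4 genes passed in cortex and 1 of 6 in the striatum-labelled libraries, beside 6.13% and 6.28% of all genes. The gene was Tspan12, with 52.5 CPM from 66 UMIs and 32.5 CPM from 42 UMIs, a log2 ratio of -0.69 (-1.29 to -0.11). In cortex its OPC levels were 36.5 and 36.7 CPM, and the call was lost when doublets were kept. Wnt7a in OPC-like nuclei had log2 ratios of -0.24 and -0.53 and Wnt7b of 0.37 and 0.36, all with intervals that held 0. Intervals clear of 0 were found for 8.04% and 10.8% of all genes measured in OPC-like nuclei.

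Over all kept nuclei, 0 of 9 genes passed 1.5-fold in either region, beside 2.36% and 4.45% of all genes. In the striatum-labelled libraries 5 of the 9 had intervals clear of 0, beside 41.7% of all genes: Wnt7a at -0.45 (-0.63 to -0.27), Fzd4 at -0.27, Adgra2 at -0.18, Apcdd1 at -0.39 (-0.56 to -0.22) and Lef1 at 0.16 (0.11 to 0.20). In cortex 2 did, beside 31.1%: Adgra2 at -0.18 (-0.32 to -0.04) and Apcdd1 at -0.29 (-0.47 to -0.11). Adgra2 and Apcdd1 thus had intervals below 0 in both regions. Endothelial-like nuclei were 3.95% and 3.55% of the kept nuclei in cortex and 4.85% and 4.53% in the striatum-labelled libraries, lower with AAV-VEGF-C in each case. Fibroblast-like nuclei, which also held both genes, were 2.06% and 1.43% in cortex and 3.83% and 1.79% in the striatum-labelled libraries, the latter from 815 and 295 nuclei. Mixed vascular nuclei were 1.65% and 1.78%, then 1.98% and 1.81%. In unnamed nuclei of the striatum-labelled libraries Apcdd1 went from 44 to 6 UMIs. The part of these shares in the whole-library ratios was not tested.

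**Figure D4:**
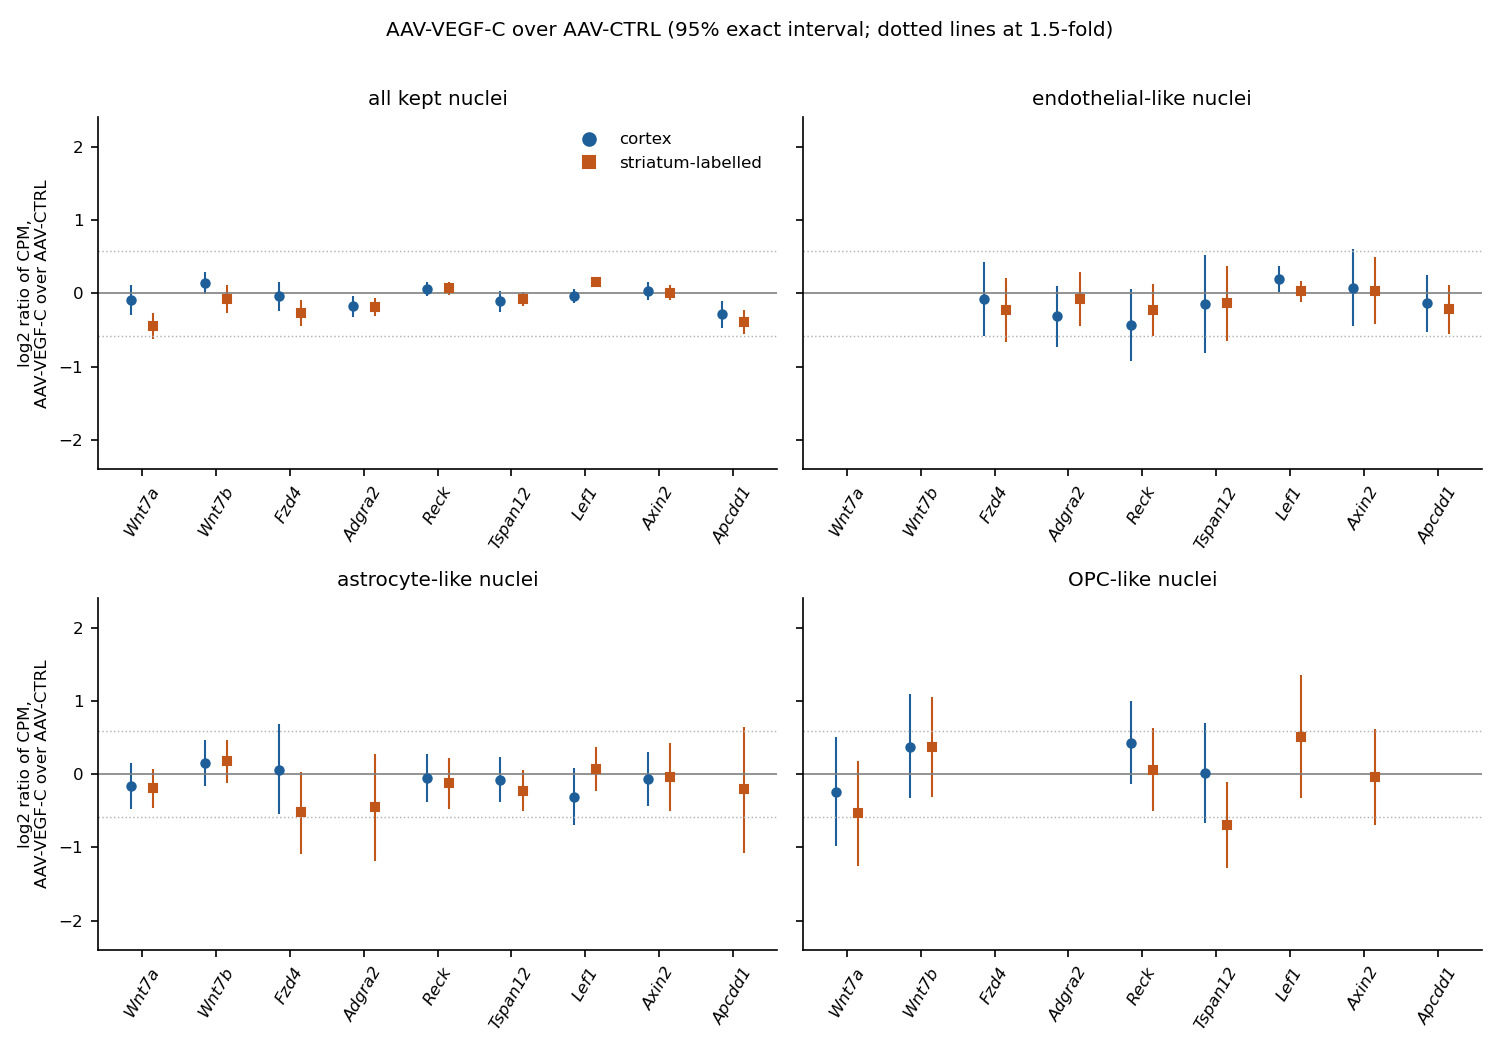
Log2 ratio of the level in AAV-VEGF-C over AAV-CTRL for each gene, in all kept nuclei and in endothelial-, astrocyte- and OPC-like nuclei, by region label, with exact 95% intervals and dotted lines at 1.5-fold; genes under 50 UMIs are not drawn. In endothelial-like nuclei the genes with enough UMIs lie between -0.43 and 0.20 in cortex and between -0.22 and 0.04 in the striatum-labelled libraries.

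Between regions, within AAV-CTRL and within AAV-VEGF-C, 0 of 7 genes differed by 1.5-fold or more in endothelial-like nuclei, beside 17.4% and 18.3% of all genes measured. Lef1 in the striatum-labelled over the cortex library had a log2 ratio of 0.25 (0.08 to 0.42) in AAV-CTRL and 0.08 (-0.08 to 0.25) in AAV-VEGF-C. Reck had 0.29 (-0.10 to 0.69) and 0.49 (0.04 to 0.95). Intervals clear of 0 were found for 23.3% and 23.9% of all genes measured. Leaving out the marker-low cluster, an alternative chosen after seeing the data, moved Lef1 to 0.52 and 0.35 and Reck to 0.57 and 0.78. The endothelial level was therefore sensitive to which clusters were pooled.

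In astrocyte-like nuclei 2 of 9 genes in AAV-CTRL and 2 of 7 in AAV-VEGF-C passed 1.5-fold, beside 20.1% and 19.8% of all genes. Axin2 was 33.4 and 31.9 CPM in the cortex libraries and 16.9 and 16.4 CPM in the striatum-labelled ones, a log2 ratio of -0.99 (-1.40 to -0.58) in AAV-CTRL and -0.96 (-1.39 to -0.54) in AAV-VEGF-C. It was the only one of the 9 past 1.5-fold in both AAV labels. The other calls were Adgra2 in AAV-CTRL, from 3.42 to 8.61 CPM on 12 and 47 UMIs, and Lef1 in AAV-VEGF-C, from 25.6 to 38.9 CPM. Adgra2 fell below the minimum of UMIs with thinned nuclei, which left 1 call in AAV-CTRL, and Lef1 did not pass under median-of-ratios scaling, with a log2 ratio of 0.55. Reck was lower in both, with log2 ratios of -0.44 (-0.77 to -0.11) and -0.51 (-0.85 to -0.17), short of 1.5-fold. Wnt7a, with log2 ratios of 0.18 and 0.15, and Wnt7b, with -0.08 and -0.06, had intervals that held 0, beside intervals clear of 0 for 39.6% and 38.2% of all genes measured.

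The astrocyte-like class was made of different clusters in the regions. A cluster led by Gm35552 and Gldc held 1814, 2259, 378 and 158 nuclei, and a cluster led by Agt and Itih3, non-telencephalic astrocyte-like by the fixed markers, held 68, 78, 2118 and 1528. Axin2 was 33.6, 31.99, 23.4 and 37.3 CPM in the Gldc-led cluster and, in the striatum-labelled libraries, 14.5 and 13.2 CPM in the Agt-led cluster. Another, led by Myoc and Gfap, held 22, 15, 435 and 328 nuclei, and its Wnt7a was 27.7 and 23.4 CPM in the striatum-labelled libraries, against 56.1 and 48.2 CPM in the Agt-led cluster. Tspan12 in the Gldc-led cluster was 47.1, 43.5, 100.3 and 74.6 CPM.

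**Figure D5:**
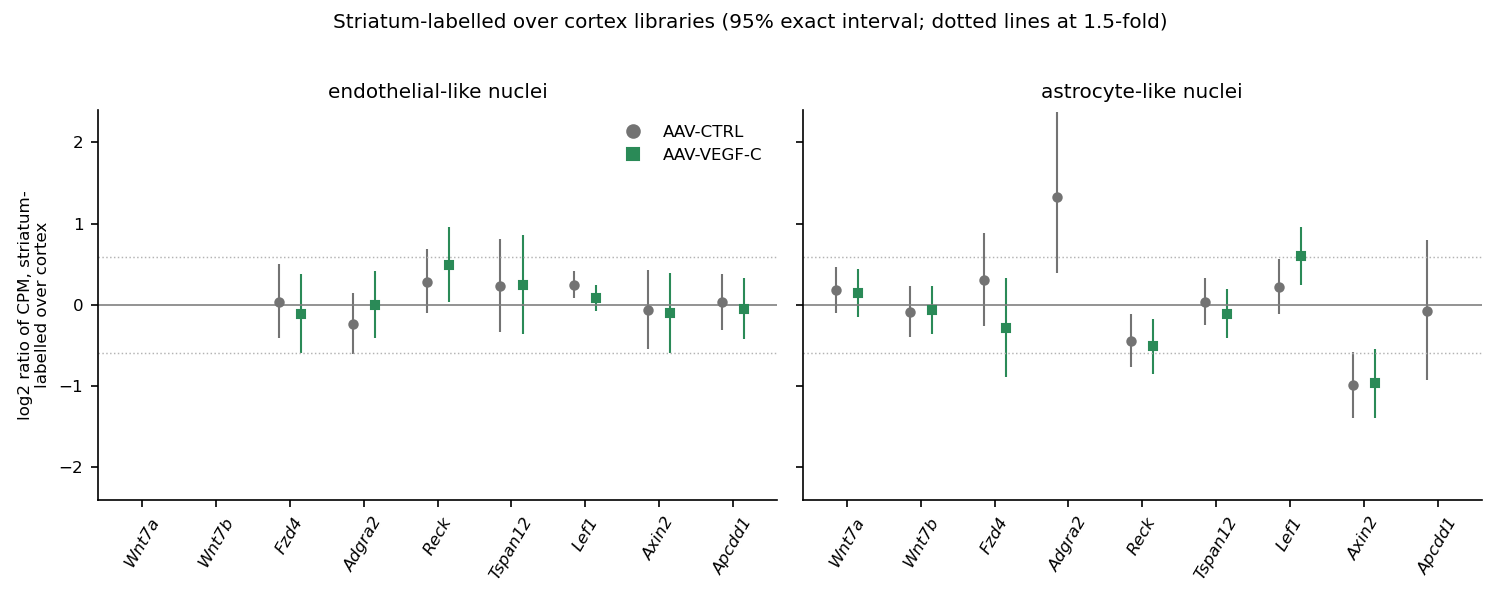
Log2 ratio of the level in the striatum-labelled over the cortex library for each gene, in endothelial- and astrocyte-like nuclei, within AAV-CTRL and AAV-VEGF-C, with exact 95% intervals and dotted lines at 1.5-fold; genes under 50 UMIs are not drawn. Axin2 in astrocyte-like nuclei lies at -0.99 and -0.96, outside the dotted lines in both AAV labels.

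Other genes of the pathway were followed in endothelial-like nuclei from 6 lists written beside the members. The list of 18 other ligands held Wnt genes and the gene of Norrin, and few of them reached 50 UMIs. In the cortex AAV comparison 0 of them reached 50 UMIs, and the highest, Wnt5a and Wnt4, had medians over libraries of 27.3 and 18.6 CPM. Of the 17 other receptors and co-receptors, led by Fzd6 at 159 CPM and Lrp6 at 101 CPM, 5 reached the minimum in cortex and 0 passed 1.5-fold, with a median log2 ratio of -0.26 beside -0.01 over all genes. In the striatum-labelled libraries 8 did and 1 was lower, Ror2, from 21.9 to 14.1 CPM. Of all genes measured in endothelial-like nuclei, 5.66% passed in cortex and 6.10% in the striatum-labelled libraries, the shares that stand beside each list. Fzd6 had a median of 10.7 CPM in all other nuclei.

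Of 6 genes for ligand secretion and agonists, led by Wls at 84.1 CPM and Porcn at 41.3 CPM, 2 were measured in each region and 0 passed. The 22 inhibitors were led by the beta-catenin destruction genes Gsk3b at 440 CPM and Apc at 185 CPM. Of the 22, 7 were measured in cortex and 9 in the striatum-labelled libraries. The call was Kremen1, from 26.7 to 14.9 CPM in the latter, beside 6.10% of all genes measured. The feedback inhibitor genes Nkd1 and Notum, chosen after their values were seen, stood at medians of 95.1 and 26.2 CPM against 11.95 and 1.86 CPM in all other nuclei. Of the 8 genes of the transcription complex, led by Ctnnb1 at 511 CPM, the gene of beta-catenin, and Tcf7l2 at 171 CPM, 7 and 8 were measured and 0 passed. Among the ligands of the striatum-labelled libraries 3 were measured and Wnt5b passed, from 13.0 to 24.3 CPM, beside 6.10% of all genes measured.

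The 14 barrier genes, led by Spock2 at 1728 CPM and the tight junction gene Cldn5 at 1645 CPM, had 12 measured in each region. The median log2 ratio of the list was -0.07 in cortex and -0.10 in the striatum-labelled libraries.

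Between regions, more genes passed 1.5-fold in endothelial-like nuclei than between viruses, over all genes measured (17.4% and 18.3%, against 5.66% and 6.10%) as well as in these lists. Tcf7l2, a partner of beta-catenin that marks the thalamus, was 64.6 and 45.8 CPM in endothelial-like nuclei of cortex and 277 and 297 CPM in the striatum-labelled libraries, log2 ratios of 2.10 (1.71 to 2.51) and 2.70 (2.25 to 3.18). Dkk3 went the other way, from 145 and 137 CPM to 34.9 and 28.2 CPM. Neither shift was limited to vessels. Tcf7l2 was higher in the striatum-labelled library in 19 of 19 and 16 of 16 classes, with a median difference of 142 and 168 CPM, and Dkk3 was lower in 19 of 19 and 15 of 16. Thalamic neuron-like nuclei held Tcf7l2 at 813 and 886 CPM, and the part of free transcripts in the endothelial-like values was not tested.

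Among other region calls in endothelial-like nuclei, Apc2 was higher in both AAV labels, from 21.9 to 43.2 and from 29.5 to 57.1 CPM, and Wnt5a from 11.5 to 30.1 and from 24.4 to 40.7 CPM. In AAV-CTRL alone Tcf7l1 and Pygo1 were higher, with log2 ratios of 0.81 each, and Fzd3 was lower, with a log2 ratio of -0.78. In AAV-VEGF-C alone Porcn was lower, from 56.9 to 25.03 CPM. Whether any of these differed between the AAV labels was not tested.

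Across 77 sums of class and library, the genes most alike in pattern to each member were found among 13436 genes by Pearson's r of log2(CPM + 1). The sums share libraries, depth and free transcripts, so r is a description and not a test. Apcdd1 was most like Abcb1a, the efflux pump gene of the barrier, with r = 0.82, and Akap12 and Ctla2a, with 0.79 and 0.78. Fzd4 was most like Flvcr2, Id1 and Bsg, with 0.84, 0.82 and 0.82, and Adgra2 like Akap12, A4galt and Ebf1, with 0.86, 0.82 and 0.82. Lef1 was most like Ccdc141, Amotl1 and Cyyr1, with 0.79, 0.78 and 0.75, and Axin2 like Fam129b, Lamb2 and Tnfaip1, with 0.70, 0.67 and 0.67.

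The likenesses of the ligands were weaker. Wnt7a was most like Ptprz1, Gpc5 and Acsbg1, with r = 0.57, 0.54 and 0.53, and Wnt7b like Mmd2, Pou3f3 and Slc13a5, with 0.62, 0.59 and 0.54. Reck was most like Col18a1, Crispld1 and Smarcd3, with 0.66, 0.63 and 0.62, and Tspan12 like Sparcl1, F2r and Bcl7c, with 0.66, 0.63 and 0.63. Among the members themselves Adgra2 and Apcdd1 had the highest r, 0.73, then Fzd4 and Lef1 with 0.62. Wnt7a and Wnt7b had 0.43, and the lowest value was -0.22, between Wnt7b and Lef1.

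By GRCm38 coordinates, Wnt7a lies at chr6:91363981-91411363 and Tspan12 at chr6:21771395-21852515, both on the minus strand, and Wnt7b at chr15:85535437-85582473, also on the minus strand. On the plus strand lie Fzd4 at chr7:89404355-89413134, Adgra2 at chr8:27085583-27123436, Reck at chr4:43875530-43944806, Lef1 at chr3:131110471-131224356 and Axin2 at chr11:108920349-108950783. Antisense or overlapping genes on the other strand were counted for 5 members: AU022754 at Wnt7b, Brf2 at Adgra2, Gm30270 at Tspan12, Gm43352 at Lef1 and Gm11670 at Axin2. How reads were assigned between these pairs is not given in the sources used here.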

How the data were processed

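Nuclei of 4 libraries, 1 per group, were counted by the authors with 10x Genomics 3′ chemistry and Cell Ranger. The deposited values are raw UMI counts per gene and nucleus on mm10. Per the file headers the version was 5.0.1, and the submitters' processing notes give 5.1.1. Whether intronic reads were counted is not given in the sources used here, and how strand was used is not either. The study discarded nuclei under 200 UMIs, while the lowest deposited nucleus had 719 UMIs.

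Scrublet (scanpy 1.11.5), set to expect 8% doublets, marked 5.19%, 5.95%, 8.67% and 4.50% of nuclei in the order of the report. Called doublets and 15 clusters with at least 40% of them were left out, 6034 nuclei in all. All libraries were clustered together with Leiden (leidenalg 0.10.2) at a resolution of 1.2 on 15 neighbours, 50 principal components and 4956 variable genes, and vascular clusters again at 0.8. The 9 genes and the listed pathway genes were left out of clustering. Clusters were named from fixed markers: a marker counted at 2-fold over other nuclei and in 10% of the cluster, and a name needed 3 markers and 50% of its list. This scoring rule was set after the clusters were seen, so a difference from the study may come from rebuilt names.

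UMIs were summed per class and library and scaled to CPM. Ratios were counted at 1.5-fold where both libraries together had 50 UMIs, and classes entered with 50 nuclei. Since each group was 1 library, nothing was tested. The ratio step was tested on simulated data. Named genes were the 9 members, the listed genes past 1.5-fold and the 2 highest of each list in endothelial-like nuclei, and the 3 genes most alike to each member. Results for some of the listed genes and unnamed clusters are not reported here. The members, lists and tests were chosen with earlier results of these data known. Promoter motifs were not fixed beforehand, and the wider set was tried after the first. Python 3.11.15, numpy 2.4.6 and scipy 1.17.1 were used.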

Additional observations from a re-analysis of the deposited data

How the results depend on the processing

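With 1 library per group no library could be left out, and all limits are those of counting error within 1 pool of mice. Both region labels of an AAV group came from the same pool, so region comparisons were made within a pool. No paired test was possible because each group had 1 library and the labels give no replicate numbers that could be blocked. Of the recomputed counts 107 stayed within 1.5 times the reported count and 17 did not, and 0 called ratios changed sign. Without the minimum of 50 UMIs, the genes past 1.5-fold became 1 (Wnt7b) in endothelial-like nuclei of cortex, 3 in OPC-like nuclei of cortex, 1 in endothelial-like and 2 in OPC-like nuclei of the striatum-labelled libraries, and 1 and 2 in the region comparison of endothelial-like nuclei in AAV-CTRL and AAV-VEGF-C. These are genes with few UMIs by construction. With nuclei thinned to 1000 UMIs, which left 15463, 18162, 19824 and 16023 nuclei in the order of the report, they became 1 in endothelial-like (Reck, log2 ratio -0.67), 2 in astrocyte-like and 0 in OPC-like nuclei of the striatum-labelled libraries, and 1 in the region comparison of astrocyte-like nuclei in AAV-CTRL. With the mean of per-nucleus CPM they became 1 in astrocyte-like and 2 in OPC-like nuclei of the striatum-labelled libraries. With each library clustered on its own they became 1 in astrocyte-like nuclei there and 1 (Reck) in the region comparison of endothelial-like nuclei in AAV-VEGF-C, and the AAV ratio of Reck in striatum-labelled endothelial-like nuclei went from -0.22 to 0.38. With doublets kept the Tspan12 call in OPC-like nuclei was lost, leaving 0. Median-of-ratios scaling left 1 call in the region comparison of astrocyte-like nuclei in AAV-VEGF-C, since Lef1 no longer passed. Without the marker-low cluster, chosen after seeing the data, the region count of endothelial-like nuclei in AAV-VEGF-C was 1 (Reck). A resolution of 2, totals without mitochondrial and the top 50 genes, and clustering with the 9 genes and the listed genes kept moved no count by more than 1.5 times. The cause of the other moves was not tested.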
